A study of Mus musculus with 4 samples.

Results

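Intron reads of 2 liver libraries, collected at CT22 and CT34 (CT is circadian time, in hours), were compared gene by gene and set beside the exon reads of the same genes. Members were the genes with at least 50 intron reads over both libraries: 5982 of the 24480 genes that carried a symbol. For each gene the transcript with the highest mean level was used, and only introns that overlapped no exon of any listed transcript were summed, which left 112038 of 136056 introns. Of the 24480 genes, 21538 had an intron in that transcript and 19395 had at least 1 usable intron. The median member held 168 intron reads over both libraries, and 5745 members also had at least 50 exon reads, the minimum for an exon ratio. Just inside the limit, 233 genes held 50 to 54 reads and had a median absolute log2 ratio of 0.41. Just outside it, 254 genes held 45 to 49 reads and had a median of 0.51.

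All 4 libraries of the series, CT22, CT28, CT34 and CT40, came from C57/BL6 mice with the ClockΔ19 mutation and a pair of transgenes, Scg2:tTA and tetO::Clock-HA. The animals had 1 week of 12 h light and 12 h dark, then constant darkness, and collection started one day into it. Their drinking water held doxycycline (30 ug/ml), begun 3 days ahead of the darkness and kept up to the end. The drug turns off transgenes of this design, and the Scg2 promoter is active mainly in neurons and endocrine cells. Each time was 1 library of polyA RNA pooled from 3 animals, and no group without the mutation or without the drug was analysed here. With 1 library a time there is no spread between samples and therefore no test: ratios carry 95% intervals for counting error only, and a count past 2-fold is a description of these libraries. CT28 and CT40 values are shown beside the pair, and 4 values in a row are always those of CT22, CT28, CT34 and CT40 in that order.

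Introns are cut out of most transcripts soon after they are made. Reads within introns therefore come largely from unfinished transcripts and follow recent transcription, whereas exon reads come largely from mature mRNA, whose level also depends on how long it lasts. In the liver clock, the pair of CLOCK and ARNTL acts at E-boxes of the Per, Cry and Nr1d genes, the ROR and REV-ERB receptors act at ROR elements in Arntl and its relatives, and DBP and its relatives act at D-boxes. The ClockΔ19 allele makes a protein that binds its partner but activates poorly. Polyadenylated intron sequence can also come from retained introns or exons missing from the annotation, and without strand marking, from a gene on the opposite strand.

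Promoters of 4 genes are shown as examples that hold one of the motifs searched: Arntl and Per3 among the clock genes, Nr0b2 and Cish among the genes with the widest intron ratios. They were picked after their values and motifs had been seen; the windows of Npas2 and Thrsp held none of these motifs, nor did the other RefSeq window of Arntl. The windows are from RefSeq, build GRCm38.p6, run 5′ to 3′ on the strand of the gene and reach from 250 bases before the start of the gene to 50 bases after it. Capitals mark the motif named after each gene.
Arntl (ROR element, chr7:113207261-113207560, plus strand): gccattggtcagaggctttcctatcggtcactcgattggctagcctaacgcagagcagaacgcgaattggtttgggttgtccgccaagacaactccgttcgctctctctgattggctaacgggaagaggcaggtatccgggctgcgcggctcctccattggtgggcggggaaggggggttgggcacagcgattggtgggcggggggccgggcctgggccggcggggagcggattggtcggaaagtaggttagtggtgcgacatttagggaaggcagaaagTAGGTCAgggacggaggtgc
Per3 (D-box, chr4:151044616-151044915, minus strand): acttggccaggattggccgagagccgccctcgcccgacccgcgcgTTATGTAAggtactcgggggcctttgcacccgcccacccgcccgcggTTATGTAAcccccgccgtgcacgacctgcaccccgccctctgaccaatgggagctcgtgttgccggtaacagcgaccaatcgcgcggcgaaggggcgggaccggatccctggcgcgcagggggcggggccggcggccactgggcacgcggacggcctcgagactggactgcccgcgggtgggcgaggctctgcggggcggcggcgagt
Nr0b2 (E-box, chr4:133553126-133553425, plus strand): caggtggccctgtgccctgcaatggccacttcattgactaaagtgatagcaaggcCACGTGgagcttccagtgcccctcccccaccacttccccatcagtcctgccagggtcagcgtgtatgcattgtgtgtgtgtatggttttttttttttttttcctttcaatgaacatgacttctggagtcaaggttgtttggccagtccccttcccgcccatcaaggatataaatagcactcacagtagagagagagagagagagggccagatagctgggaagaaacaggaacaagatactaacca
Cish (STAT5 site, chr9:107296409-107296708, plus strand): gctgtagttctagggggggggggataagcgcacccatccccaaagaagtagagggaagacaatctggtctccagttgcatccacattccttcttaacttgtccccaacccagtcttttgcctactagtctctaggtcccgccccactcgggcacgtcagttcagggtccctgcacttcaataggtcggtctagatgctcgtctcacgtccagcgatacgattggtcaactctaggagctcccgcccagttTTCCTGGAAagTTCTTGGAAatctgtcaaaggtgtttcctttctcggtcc
The motifs were searched on both strands as CACGTG (E-box), TTANGTAA (D-box), TAGGTCA or TGGGTCA (ROR element) and TTCNNNGAA (STAT5 site). The ROR element of Arntl begins 30 bases after the start, the D-boxes of Per3 begin 205 and 158 bases before it, and the E-box of Nr0b2 begins 195 bases before it. The pair of STAT5 sites in Cish begins at the start itself and 11 bases after it. Of 32851 windows of 300 bases, 7.15% held the E-box, 2.32% the D-box, 6.45% the ROR element and 8.3% the STAT5 site. A match is a run of letters, not a shown binding site.

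The CT22 library held the most intron sequence. Over the transcripts with usable introns, intron reads came to 12.4, 9.36, 8.14 and 8.70 per 100 exon reads. Intron sums were therefore scaled by their own TMM factors, which put the median log2 ratio of all members at 0.00. Factors taken from exon reads would instead add 0.66 to every log2 ratio, so each direction below is relative to the typical intron ratio of these 2 libraries. Ratios also followed intron length: the median log2 ratio was -0.26 below the first quartile of summed intron length (6.40 kb) and 0.26 above the upper quartile (38.7 kb), beside exon medians of 0.02 and -0.07. All 10 hepatocyte markers were members. No marker of cholangiocytes (0 of 5) or of erythroid cells (0 of 4) was.

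With the median ratio centred by the scaling, 386 genes (6.45%) were at least 2-fold higher at CT22 in introns and 390 (6.52%) higher at CT34, together 13.0% of the members. Under scaling by total intron reads the split was 487 against 292, and under the exon factors 1779 against 70. In exon reads, 243 of 5745 genes (4.23%) were at least 2-fold higher at CT22 and 234 (4.07%) higher at CT34. Intron ratios were spread more widely than exon ratios, with an SD over genes of 0.71 against 0.60 on the log2 scale.

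Few genes passed 2-fold in both readouts. Of the genes at least 2-fold higher at CT22 in introns, 358 had an exon ratio, and 72 of them passed 2-fold the same way in exons: 20.1% of the intron list and 29.6% of the exon list. At CT34 the shared genes numbered 68, or 18.5% and 29.1% of the lists. Over all 5745 genes with an exon ratio, 4.23% passed 2-fold toward CT22 in exons and 4.07% toward CT34. Under the exon factors the shared genes numbered 154 at CT22 and 25 at CT34. An exon ratio of the same sign was found in 291 of the 358 (81.3%) and in 285 of 367 (77.7%). A shared sign is a looser match than a shared 2-fold call, so these shares cannot be ranked against those above. Only 10 genes were at least 2-fold apart in opposite directions. Across the 5745 genes Spearman's rho between the 2 log2 ratios was 0.38, a description over genes that share both libraries.

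**Figure D1:**
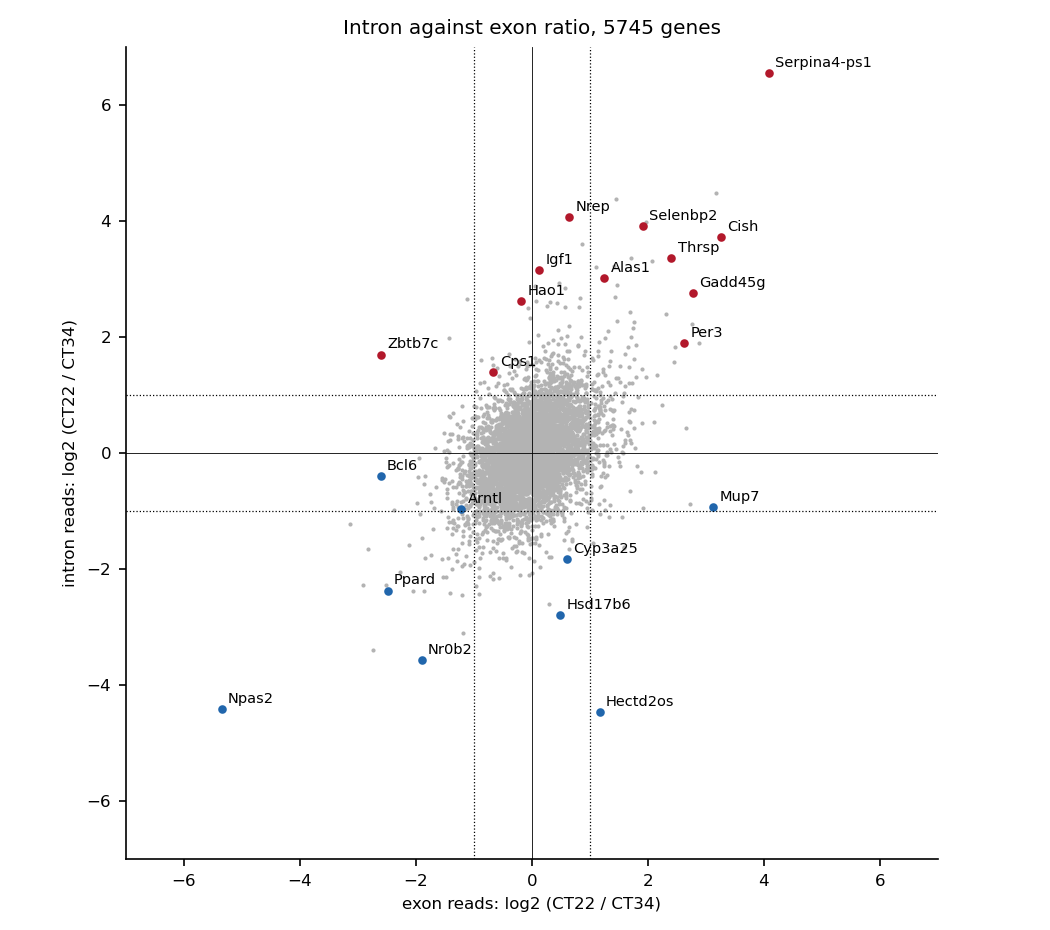
Log2 ratio of CT22 over CT34 in intron reads (vertical) against exon reads (horizontal); each grey point is 1 of 5745 genes, coloured points are labelled genes (red higher at CT22 in introns, blue higher at CT34), and dotted lines mark 2-fold. Cish, Thrsp and Npas2 lie far out on both axes, whereas Igf1, Hao1 and Hsd17b6 lie far out on the intron axis only.

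The CT22 library stood apart from each other library more often than CT34 did among these genes, although picking genes by the ratio of CT22 to CT34 makes either library likely to be an extreme. Of the 386 genes higher at CT22, 362 had their highest scaled intron level there, and in 105 that level was at least 2-fold above each of the other 3 libraries. CT34 was lowest of the 4 in 241 and at least 2-fold below each other library in 20. Of the 390 genes higher at CT34, CT22 was lowest in 373 and at least 2-fold below each other library in 104, whereas CT34 was highest in 234 and stood 2-fold above each other library in 9. Whether the composition of the CT22 library takes part in these counts was not tested.

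Core clock genes with enough intron reads numbered 14 of 23. Npas2, a relative of Clock that pairs with ARNTL, had the widest ratio among them. Its scaled intron reads were 43.3, 422, 921 and 154, lowest at CT22 and highest at CT34, and its scaled exon reads were 15.4, 246, 626 and 184 in the same order. The log2 ratio was -4.41 in introns (interval of the CT22 to CT34 ratio 0.0348 to 0.0623) and -5.35 in exons. All 11 introns of Npas2 with at least 10 reads were higher at CT34. The gene spans chr1:39251117-39420085 on the plus strand (mm9, as deposited), and 36.5% of its intron reads lay in the first intron.

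Arntl, the partner of CLOCK, was also higher at CT34. Scaled intron reads were 397, 704, 779 and 481, and exon reads were 411, 801, 955 and 748. Both readouts were lowest at CT22 and highest at CT34, with a log2 ratio of -0.97 in introns and -1.22 in exons. The 17 usable introns all had at least 10 reads, and 0 of them were higher at CT22. Clock itself differed between the readouts. Its scaled intron reads were 385, 283, 243 and 218, highest at CT22, while its exon reads stayed within 1276 to 1373 in all 4 libraries. The intron level was 1.59-fold (interval 1.34 to 1.89) higher at CT22 with an exon log2 ratio of 0.00, a gap of 0.67 (interval 0.41 to 0.94); 9 of its 12 introns with at least 10 reads were higher at CT22. These sums cover the whole gene and do not show the ClockΔ19 allele.

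Repressors of the clock ran in both directions. Per3, one of the Period repressors, was 3.72-fold (interval 2.21 to 6.66) higher at CT22 in introns, with scaled intron reads of 79.2, 70.8, 21.3 and 49.1 with an exon log2 ratio of 2.62. Introns and exons were both lowest at CT34; 88.4% of these intron reads lay in 1 intron. Per2 and Per1 were level in introns (log2 -0.02 and -0.01) and higher at CT22 in exons (0.60 and 0.59). In the CT40 library Per2 had its highest scaled intron reads (647) and its lowest exon reads (306). Cry1 and Cry2, the cryptochrome repressors, had intron log2 ratios of -0.23 and -0.52 and exon ratios of -0.84 and -0.85. Both intron intervals include equal levels.

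The receptor genes of the second loop named here differed by less than 2-fold between CT22 and CT34 in introns. Nr1d1 and Nr1d2, which encode the REV-ERB repressors, had intron log2 ratios of 0.14 and 0.16, with intervals that include equal levels, and their intron reads were highest at CT40 (132 and 139.6 scaled). The exon ratio of Nr1d2 was 1.42, a gap of -1.26 (interval -2.08 to -0.44). Rora, a ROR activator, stood at -0.07 in introns and at -0.67 in exons. Bhlhe40, an E-box repressor, was 1.81-fold (interval 1.18 to 2.82) higher at CT22 in introns and had an exon log2 ratio of -0.13. Fbxl21, a ligase subunit that acts on cryptochromes, had an intron ratio of -0.61.

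As a group the clock genes gave 5 higher at CT22 and 9 higher at CT34 in introns, 1 past 2-fold each way (Per3 and Npas2), with a median log2 ratio of -0.04 beside -0.08 in exons. The share past 2-fold, 2 of 14, is near the 13.0% of all members. Of 11 members among E-box targets, 7 were higher at CT22 and 3 passed 2-fold (6.45% of all members): Per3, Nampt (2.01), the enzyme that makes an NAD precursor, and Usp2 (1.58), a deubiquitinase. Their median was 0.14 in introns and 0.59 in exons. Of 6 ROR element targets, 4 were higher at CT34, with medians of -0.26 and -0.60. The intron ratio lay above the exon ratio in 6 of 6, with a median gap of 0.49 beside 0.01 over all genes with both ratios. Most genes of both lists are also core clock genes. Clock genes not kept numbered 9, among them Dbp, Hlf and Nfil3, which had no usable intron, and Tef, Bhlhe41, Ciart, Csnk1d and Csnk1e, which had too few reads.

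**Figure D2:**
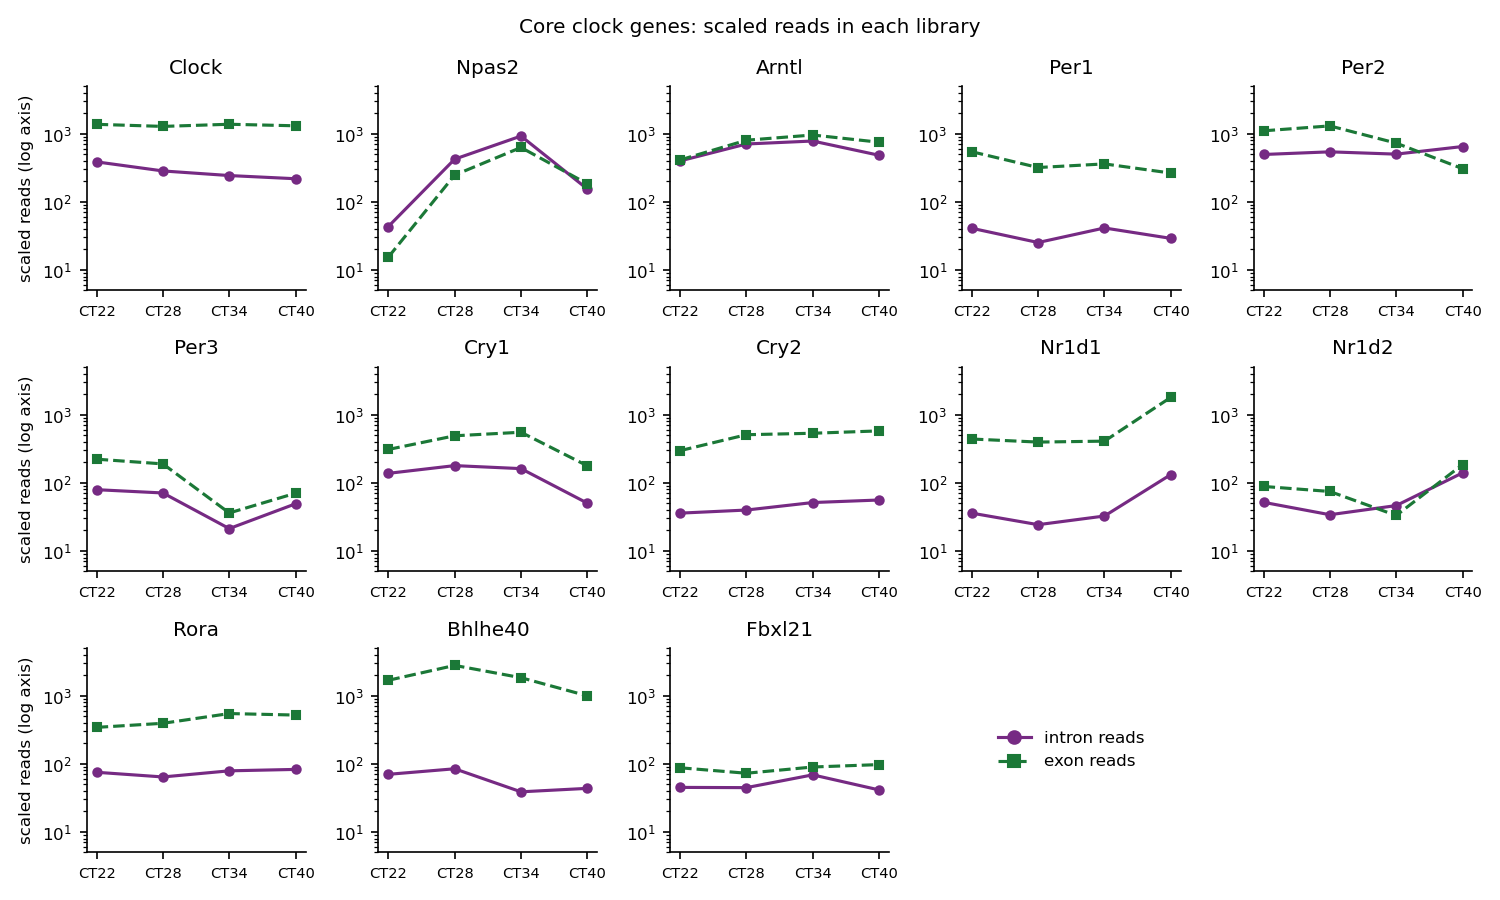
Scaled intron reads (purple circles) and scaled exon reads (green squares) of core clock genes kept, in each of the 4 libraries, on a log axis; each point is 1 library and there are no error bars because there is 1 library a time. Npas2 and Arntl are lowest at CT22 in both readouts, Clock introns are highest at CT22 while its exons are level, and the introns of Nr1d1 and Nr1d2 are highest at CT40.

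The 12 genes whose intron ratio lay farthest toward CT22 were Serpina4-ps1, Amn1, Cyp4a12a, Nrep, Rcan1, Selenbp2, Cish, Thrsp, Vmp1, Scara5, Igf1 and Alas1. Their counting intervals put them there, so the choice used this ratio and the values are a description. CT22 was the highest of the 4 libraries in all 12. In exons, from the same 2 libraries but not used to choose them, all 12 were also higher at CT22. Of these, 10 were higher by at least 2-fold (4.23% of genes with an exon ratio). The intron ratio exceeded the exon ratio in each, which choosing by the intron ratio makes likely. In 5 of the 12, over 90% of the intron reads lay in 1 intron.

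Cish encodes a STAT5-induced inhibitor of cytokine and growth hormone signals. Its scaled intron reads were 446, 82.5, 33.8 and 59.2, far higher at CT22 than in any other library. Exon reads followed, at 1205, 634, 126 and 174, and the log2 ratios were 3.72 in introns and 3.26 in exons. Both of its usable introns were higher at CT22; the gene lies at chr9:107199020-107204292 on the plus strand (mm9, as deposited) and overlaps another gene, from which its reads cannot be told apart. Its promoter carries the pair of STAT5 sites printed above. Among the 8 genes of these 12 with a RefSeq window, the STAT5 letters were found in 2, Cish and Alas1, and the E-box in 1, Rcan1. A gene was counted if any of its windows matched, whereas the shares given above count single windows. The matches of Alas1 and Rcan1 lay in 1 window each, and another window of each gene, at another start, held none. Which start the reads of these genes came from was not tested.

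Thrsp, a nuclear protein of fat synthesis, had scaled intron reads of 1396, 686, 136 and 310.5 and exon reads of 9210.2, 7158, 1739 and 2112. Introns and exons gave the same order of libraries, with CT34 lowest, and the intron level was 10.2-fold (interval 8.44 to 12.5) higher at CT22. Alas1, the rate-limiting enzyme of heme synthesis, had intron reads of 2496, 380.4, 308 and 277 and exon reads of 12519.9, 11032, 5272 and 3541. Its introns stood out in 1 library only, CT22, whereas its exons stepped down from CT22 to CT28, CT34 and CT40. The log2 ratios were 3.02 and 1.25, a gap of 1.77 (interval 1.58 to 1.97). Introns of Alas1 overlap another gene, from which their reads cannot be told apart. Rcan1, an inhibitor of calcineurin, had intron reads of 454, 53.4, 28.8 and 35.7, again high at CT22 alone, and exon reads of 1312, 550.2, 337 and 254; the intron ratio was 3.98.

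Male-typical liver genes were among the leaders. Serpina4-ps1, a transcribed pseudogene, had the widest ratio of all 5982 genes: scaled intron reads were 1401, 80.5, 15.0 and 79.3, 93.4-fold (interval 53.3 to 181) higher at CT22. Its exon reads were 4450.0, 1402, 261 and 1455, so CT22 was highest and CT34 lowest in both readouts. The intron ratio rests on 1 usable intron with 12 reads at CT34. Its log2 value, 6.54, went as low as 4.09 under the alternatives. Selenbp2, a selenium-binding protein, had intron reads of 1889.9, 144, 125 and 391 and exon reads of 7469, 2269, 1977 and 8004. All 10 introns of Selenbp2 with at least 10 reads were higher at CT22, although its exons were highest at CT40. Cyp4a12a, a male-biased fatty acid hydroxylase, was 20.9-fold (interval 9.42 to 57.6) higher at CT22 in introns. It shares sequence with near copies, and the log2 ratio went from 4.38 to 1.73 when multi-mapped reads were counted.

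Igf1, the growth hormone-induced liver hormone, differed sharply between the readouts. Its scaled intron reads were 3024, 508, 339 and 556, and its exon reads were 9838, 9226, 9025 and 8124. Introns were several times higher at CT22 than elsewhere, and exons differed little between libraries. The intron ratio was 8.93-fold (interval 7.89 to 10.1), the exon log2 ratio 0.12 and the gap 3.03 (interval 2.85 to 3.22). Of the Igf1 intron reads, 95.8% lay in 1 intron; without that intron the log2 ratio was 1.11. Amn1, Nrep, Vmp1 and Scara5 had log2 intron ratios of 4.49, 4.06, 3.31 and 3.22. For Amn1 and Vmp1 the ratio rests on a single usable intron, and with all introns kept it was 1.76 and 2.13. The intron of Vmp1 overlaps another gene.

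Toward CT34 the 12 leading genes, chosen in the same way, were Hectd2os, Npas2, Nr0b2, Cyp3a41a, Mapk15, Hsd17b6, Mup19, Fbxo21, Atoh8, Gask1a, Ppard and Il1rapl1. CT22 was the lowest of the 4 libraries in 11 of them and CT34 the highest in 11. Exon ratios were available for 11, of which 8 were higher at CT34, 7 of these by at least 2-fold (4.07% of genes with an exon ratio), and 3 were higher at CT22. Of the 11 with a RefSeq window, 2 held the E-box (Atoh8 and Nr0b2) and 1 the STAT5 letters (Nr0b2). No window of either set held a D-box or a ROR element. In 4 of the 12 genes toward CT34, over 90% of the intron reads lay in 1 intron.

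Nr0b2 encodes SHP, a nuclear receptor without a DNA-binding domain that represses bile acid synthesis. Its scaled intron reads were 17.5, 176, 208 and 57.0, low at CT22 and CT40 and high at CT28 and CT34. Exon reads were 287, 1043, 1068 and 631, in the same order of libraries. The log2 ratio was -3.57 in introns and -1.90 in exons; the gene has 1 usable intron and spans chr4:133109305-133112451 on the plus strand (mm9, as deposited). Ppard, the receptor PPARδ, had intron reads of 111, 287, 574 and 201 and exon reads of 261, 898, 1459 and 616. Its ratios were nearly equal, -2.37 and -2.48, and both readouts were lowest at CT22 and highest at CT34. However, 90.7% of the Ppard intron reads lay in 1 intron. Of its 3 introns with at least 10 reads, 1 was higher at CT22.

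Atoh8, a helix-loop-helix factor, and Gask1a were higher at CT34 in both readouts, with intron log2 ratios of -2.41 and -2.38 and exon ratios of -1.41 and -2.05. Fbxo21, a ligase subunit, had intron reads of 81.7, 199.9, 440.0 and 869.9 and exon reads of 972, 986, 1831 and 3619.5, both highest at CT40. Hsd17b6, a steroid dehydrogenase, did not follow that pattern. Its scaled intron reads were 86.7, 239, 599 and 571, lowest at CT22, and its exon reads were 5088, 3311, 3618 and 3613, highest at CT22. All 5 of its introns with at least 10 reads were higher at CT34; the log2 ratios were -2.79 and 0.49.

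Some of these leaders rest on few or shared reads. Hectd2os, an antisense gene, had 4 intron reads at CT22 and 59 at CT34 in 1 intron, and it overlaps another gene. Gask1a introns also overlap another gene. Cyp3a41a and Mup19 belong to families of near copies: with multi-mapped reads counted, Cyp3a41a went from -3.39 to -1.98 and Mup19 from -2.60 to -0.31. Il1rapl1 had 0 exon reads in all 4 libraries, and 99.2% of its intron reads lay in 1 intron. Its value of -2.34 is therefore that of 1 stretch of intron. Mapk15, an atypical kinase, had 12 intron reads at CT22 and 69 at CT34, with ratios of -3.11 and -1.19.

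**Figure D3:**
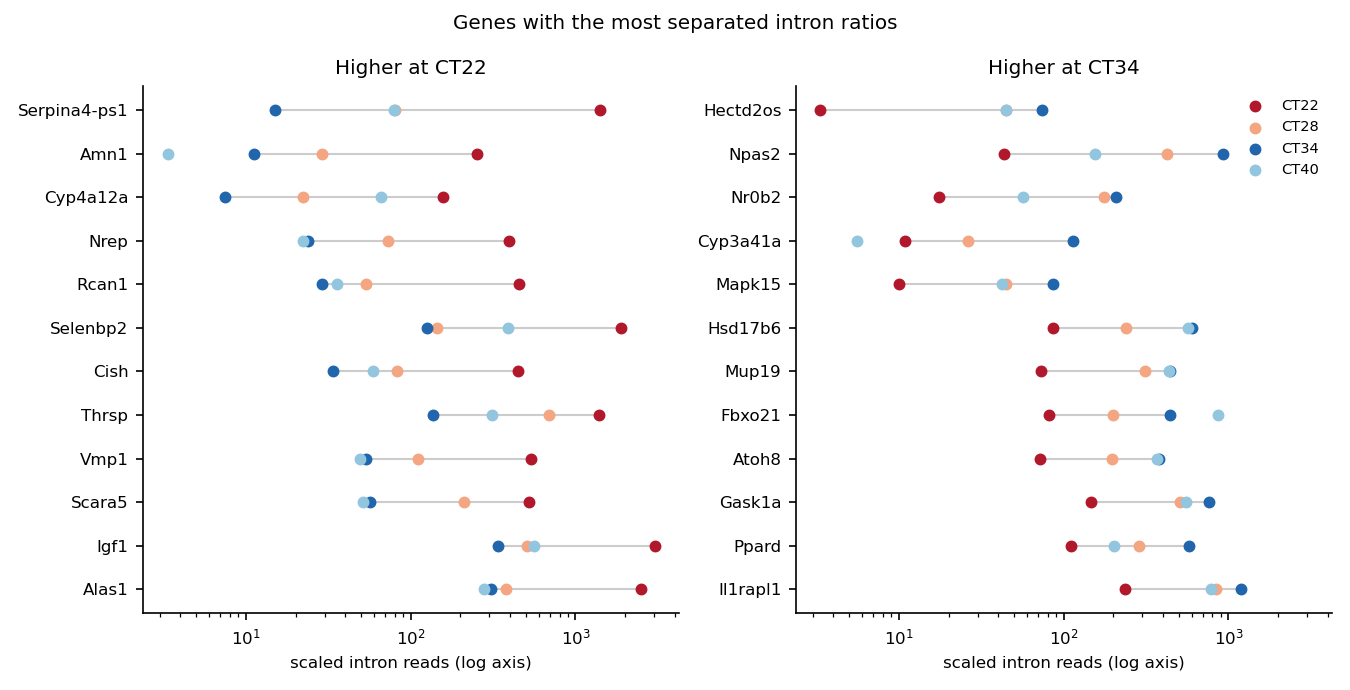
Scaled intron reads (log axis) of the 12 genes farthest toward CT22 (left) and the 12 farthest toward CT34 (right), 1 point a library; the grey line joins CT22 and CT34. In the left panel CT22 is the highest point in every gene, and in the right panel CT22 is the lowest in all but Cyp3a41a.

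The intron ratio exceeded the exon ratio by at least 2-fold in 405 of 5745 genes (7.05%) and lay below it by 2-fold in 383 (6.67%). Both readouts are centred here, and under the exon factors these counts were 1761 and 64. The 8 genes farthest above included Zbtb7c, Serpina3k, Hao1, Prpf6, Igf1 and Nrep, and introns were highest at CT22 in 7 of the 8. Choosing by the gap makes high introns at CT22 likely.

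Hao1, a peroxisomal glycolate oxidase, had intron reads of 1276, 367, 208 and 325 and exon reads of 607, 457, 691 and 669, a gap of 2.81 (interval 2.53 to 3.09). Serpina3k, an abundant secreted serpin, had intron reads of 5335, 710.3, 883 and 1204 and exon reads of 162522, 99175, 130770 and 135416, a gap of 2.28 (interval 2.17 to 2.39). Introns of both genes were highest at CT22. Exons of Serpina3k were also highest there, but by less, whereas those of Hao1 were highest at CT34. Zbtb7c, a zinc finger factor, had introns higher at CT22 (log2 1.70) and exons higher at CT34 (-2.60). Prpf6, a splicing factor, rests on 1 usable intron, and its intron ratio turned to -0.68 with all introns kept.

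Below the exon ratio the 8 farthest genes were Hectd2os, Mup7, Cabcoco1, Hsd17b6, Mup2, Mup11, Mup19 and Cyp3a25. All 8 were lowest at CT22 in introns and higher at CT22 in exons, a pattern that choosing by the gap makes likely. The 4 Mup genes encode major urinary proteins, which carry pheromones, and Mup7 had exon reads of 14799, 6503, 1697 and 7015 beside intron reads of 36.7, 146, 70.0 and 162. They are near copies of one another, Mup2 and Mup11 overlap, and multi-mapped reads turned the intron ratio of both higher at CT22 (0.11 and 0.35), so their intron values are uncertain. Exon values are uncertain as well: for Mup7 the upper deposited value of the transcript was 42.2 times the lower one at CT22 and 204 times at CT34. Cyp3a25, a steroid and drug hydroxylase, gave -1.83 in introns and 0.61 in exons. With the longest transcript its intron ratio was -0.24, and with all introns kept -0.06.

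Genes under growth hormone were split. Of 10 members on that list, 3 were higher at CT22 and 7 higher at CT34, with medians of -0.56 in introns and -0.59 in exons. Igf1 and Cish were past 2-fold toward CT22 (6.45% of all members). Cux2 (-2.37), Sult2a1 (-1.22) and Stat5b (-1.08), the last being the factor that relays the signal, were past 2-fold toward CT34 (6.52% of all members). Introns of Stat5b overlap another gene. The median is not stable, at 0.105 under the exon factors and 1.38 over the 4 genes with at least 200 reads. Bcl6, a repressor that opposes STAT5, had intron reads of 802, 923, 1059 and 1159 and exon reads of 409.9, 523, 2491 and 1259. Its exon level was several times lower at CT22, while its introns differed little, a gap of 2.20 (interval 2.00 to 2.41).

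Of 16 members on the male-biased list, 10 were higher at CT22, 7 by at least 2-fold (6.45% of all members) and 2 the other way (6.52%), with medians of 0.67 in introns and 1.37 in exons. In exons 14 of 16 were higher at CT22. The 2 past 2-fold toward CT34 in introns were Cyp2d9 (-1.79, exon 0.33) and Elovl3 (-1.99, exon -0.91), a fatty acid elongase. Cyp7b1, an oxysterol hydroxylase, had intron reads of 2549.8, 2160.0, 425 and 1158 and exon reads of 1864, 1799.7, 1388 and 2505, an intron log2 ratio of 2.58. Female-biased genes were higher at CT34 in 11 of 15, 5 by 2-fold (6.52% of all members), against 2 toward CT22 (6.45%), with medians of -0.19 and -0.48. The labels do not state the sex of the animals.

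Genes of the fasting response under PPARα, the receptor that turns on fatty acid oxidation, were mostly higher at CT34. Of 16 members, 14 were higher at CT34, 7 of them by at least 2-fold, and 0 passed 2-fold toward CT22, with a median of -0.75 in introns and -0.48 in exons. Beside these stand 6.52% of all members past 2-fold toward CT34 and 6.45% toward CT22. CT22 was the lowest library in 11 of the 16. Cyp4a14, a fatty acid hydroxylase, had intron reads of 514, 1004, 2271 and 1271 and exon reads of 9454, 17009, 27244 and 15396. Both readouts stepped up from CT22 through CT28 to CT34. Its intron level was 4.42-fold (interval 4.03 to 4.85) higher at CT34.

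Cpt1a, which brings fatty acids into mitochondria, gave -1.07 in introns and -0.20 in exons. Vnn1 (-1.97), Angptl4 (-1.22) and Cyp4a10 (-1.04) were also among the 7. Ppara itself, the receptor gene, had an intron ratio of -0.22, and Cidec, a lipid droplet protein, was higher at CT22 (0.74, exon 1.18). The introns of this list are short, 8.61 kb at the median against 16.8 kb over all members; with the length trend removed the median was -0.57, and over all alternatives it lay between -1.20 and -0.09.

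Heat shock genes parted in the 2 readouts. Of 10 members, 7 were higher at CT22 in introns, 3 by at least 2-fold (6.45% of all members) and Hspd1 just short of it, and the median was 0.61; in exons 7 of 10 were higher at CT34 and the median was -0.31. The intron ratio exceeded the exon ratio in 9 of 10, with a median gap of 0.95 beside 0.01 over all 5745 genes with both ratios. Hsph1, a chaperone of the Hsp110 family, had intron reads of 195, 40.8, 93.8 and 15.6 and exon reads of 1412, 1748, 1739 and 592. Its introns were highest at CT22 and its exons at CT28 and CT34. Chordc1 (1.20) and Hspe1 (1.43) also passed 2-fold in introns, with exon ratios of 0.26 and 0.24. CT22 was the highest library in 7 and CT40 the lowest in 9 of the 10.

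Cholesterol synthesis genes were higher at CT22 in 14 of 20 in introns (2989 of 5982 over all members), 3 by at least 2-fold (6.45% of all members), with a median of 0.33 beside 0.00 in exons. Idi1, an isomerase of the pathway, had intron reads of 122, 53.4, 30.0 and 79.3 and exon reads of 465, 429, 432 and 703. Its introns were highest at CT22 and lowest at CT34, whereas exons at CT22 and CT34 were alike. Sqle, squalene epoxidase, also passed 2-fold, at 1.02 in introns and -0.05 in exons. The intron ratio exceeded the exon ratio in 16 of 20, with a median gap of 0.48 beside 0.01 over all genes with both ratios. CT34 was the lowest library in 11. Srebf2, the factor that drives the pathway, was higher at CT34 in both readouts (-0.55 and -1.03).

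**Figure D4:**
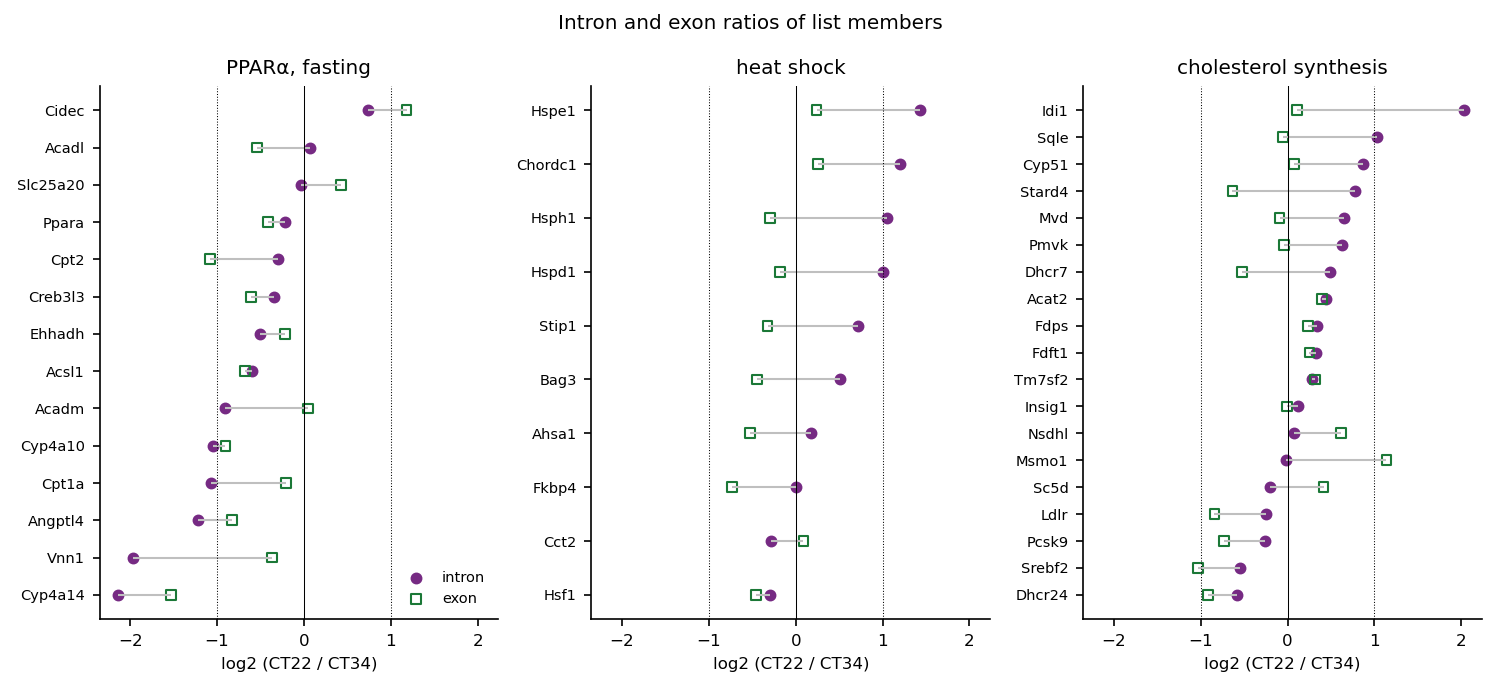
Log2 ratio of CT22 over CT34 in introns (purple circles) and exons (green squares) for kept members of the PPARα, heat shock and cholesterol synthesis lists; the grey line joins the 2 readouts of a gene and dotted lines mark 2-fold. PPARα genes lie mostly left of 0 in both readouts, whereas in the other 2 lists most circles lie to the right of their squares.

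Lipogenic genes were divided, 9 of 17 higher at CT22 and 3 by at least 2-fold (6.45% of all members), with medians of 0.16 in introns and -0.16 in exons. Beside Thrsp these were Lpin1, a phosphatidate phosphatase, with intron reads of 1231, 128, 278 and 612 and exon reads of 4462, 1798, 1325 and 2636, and Me1 (1.06), malic enzyme. Lpin1 was highest at CT22 in both readouts. Fasn, fatty acid synthase, was higher at CT34 (-0.79, exon -0.50). In glucose metabolism, 7 of 15 genes were higher at CT22 and 8 higher at CT34, with medians of -0.03 and 0.06. Past 2-fold were 2 each way, beside 6.45% and 6.52% of all members. G6pc, which releases glucose, was 2.38-fold (interval 2.23 to 2.53) higher at CT34 in introns with an exon log2 ratio of -0.45. Introns of G6pc overlap another gene, from which their reads cannot be told apart. Gbe1 was 2.41-fold (interval 2.13 to 2.73) higher at CT22 in introns with an exon log2 ratio of 0.32.

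Insulin and FoxO genes passed 2-fold in both directions, 3 of 13 each way, beside 6.45% and 6.52% of all members. Ppargc1a (1.12), a coactivator of fasting genes, and Pik3r1 (1.06), a subunit of PI3 kinase, were among those higher at CT22; Irs2 (-1.65), an insulin receptor substrate, Igfbp1 (-1.72), a binding protein of Igf1, and G6pc were higher at CT34. Of 9 glucocorticoid-induced genes, 6 were higher at CT22. Gadd45g (2.76, exon 2.78), a growth arrest gene, and Mt1 (1.22), a metallothionein, were past 2-fold (6.45% of all members), and Angptl4 was past it the other way (6.52%). Scaled intron reads of Gadd45g were 102, 9.70, 15.0 and 42.4 and its exon reads 894, 103, 131 and 194. CT22 was the highest library in both readouts.

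The bile acid and sterol export list was higher at CT34 in 12 of 18, with 3 past 2-fold toward CT34 (6.52% of all members) and 1 toward CT22 (6.45%). Those 3 were Nr0b2 and the paired sterol exporters Abcg8 (-1.81) and Abcg5 (-1.27); the 1 was Cyp7b1. The exon ratios of Abcg5 and Abcg8 were 0.38 and -0.50. The cytochrome P450 list, which also holds Alas1 and the P450 reductase Por, was split, 10 higher at CT22 and 11 higher at CT34. Cyp2c70, which makes muricholic acids, was 3.37-fold (interval 3.21 to 3.54) higher at CT22 in introns with an exon ratio of 0.23, and Cyp2d26, Cyp2d10, Cyp2d22 and Cyp2c23 were between -1.61 and -1.20. The Cyp2d genes share sequence with one another, and introns of Cyp2c70 overlap another gene.

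Genes of secreted proteins and transport differed by group. The lipoprotein list, which holds apolipoproteins together with lipoprotein enzymes and receptors, was higher at CT34 in 13 of 16, 4 by 2-fold (6.52% of all members), with medians of -0.39 and -0.17. Of these 4, Apoc2 (-1.17) and Apoe (-1.06) are apolipoproteins, Scarb1 (-1.48) is an HDL receptor and Lipc (-1.16) is hepatic lipase. Their introns are short (2.27 kb at the median), and the median was -0.23 with the length trend removed. Apob (0.57), Apoc3 (0.52) and Apom (0.35) were higher at CT22. Introns of Lipc overlap another gene. Solute carriers were higher at CT34 in 16 of 21, 5 by 2-fold (6.52% of all members), with medians of -0.42 and -0.03, led by Slc30a10 (-2.45), a manganese exporter, and Slc25a47 (-2.06). Acute phase genes were split, 9 higher at CT22 and 8 higher at CT34, with medians of 0.14 and 0.06. Of the 17, 5 passed 2-fold toward CT22 (6.45% of all members) and 0 toward CT34 (6.52%): Saa1 (3.60), Steap4 (2.61), Orm2, Orm1 (1.25) and Saa4 (1.12). The 3 with the most intron reads, Itih3 (-0.95), Itih4 (-0.54) and Fgb (-0.32), were higher at CT34. Orm and Saa genes are near copies within each family, and Saa1 had 4 intron reads at CT34.

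Complement and coagulation genes were split 13 to 16, with 5 past 2-fold each way, beside 13.0% of all members in either direction. C9 (1.67), C8b (1.66), C6 (1.54) and F9 (1.18) were among those higher at CT22, and F11 (-1.39), Serpinf2 (-1.28), Klkb1 (-1.14), C8g (-1.09) and C4b (-1.09) higher at CT34. In exons 0 of 29 passed 2-fold toward CT22 (4.23% of genes with an exon ratio) and 1 toward CT34 (4.07%), C3 (-1.51), whose introns were level (0.03). Cps1, the entry enzyme of the urea cycle, had the most intron reads of its list, 11806, 5555, 4487 and 5536 scaled, and exon reads of 42035, 69027, 66497 and 87311. Introns were highest and exons lowest at CT22, a gap of 2.06 (interval 2.00 to 2.11). Hal, Hpd and Aass also passed 2-fold in introns, at -1.36, -1.12 and 1.08, beside 13.0% of all members in either direction. Over the urea and amino acid list 14 of 20 were higher at CT34.

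**Figure D5:**
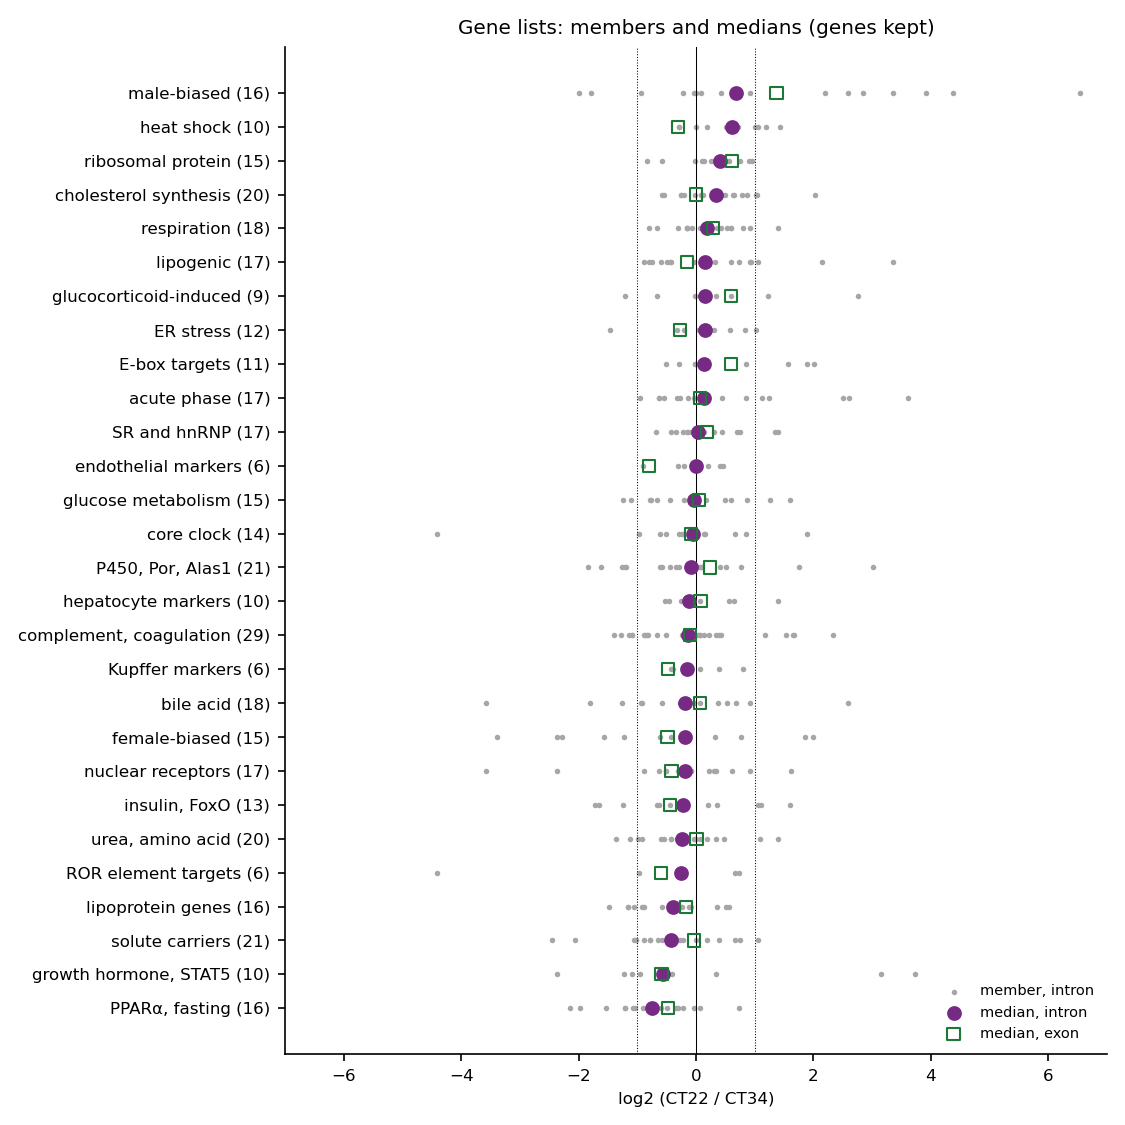
Log2 ratio of CT22 over CT34 for 28 gene lists, with the number of genes kept in parentheses; grey points are members in introns, purple circles the intron medians, green squares the exon medians, and dotted lines mark 2-fold. PPARα and growth hormone genes have the lowest intron medians (-0.75 and -0.56), male-biased and heat shock genes the highest (0.67 and 0.61), and heat shock and endothelial genes the widest spaces between the intron and exon medians.

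With the trend of the ratio with intron length removed, the intron median was 0.30 for E-box targets, -0.33 for the growth hormone list and 0.42 for lipogenic genes. Markers of other liver cells bear on the readouts differently. Endothelial markers were lower at CT22 in exons in 6 of 6, with a median of -0.80, and in introns were split 3 to 3 with a median of 0.00. Kdr, a receptor of these cells, had exon reads of 271, 306, 726 and 429 and intron reads of 75.8, 72.8, 87.5 and 98.3. Exons were lowest at CT22 and introns varied little, a gap of 1.21 (interval 0.72 to 1.71); Cdh5 and Tek had gaps of 1.68 and 1.25. In bulk tissue, fewer cells of a type and less RNA per cell cannot be told apart. Kupffer cell markers were split 3 to 3 in introns, with medians of -0.16 and -0.48. The hepatocyte markers had medians of -0.12 and 0.08, and Cps1 alone passed 2-fold (13.0% of all members did).

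Of 54 ribosomal protein genes 15 were kept. Of these, 12 were higher at CT22 and 0 passed 2-fold (13.0% of all members), and the medians were 0.41 in introns and 0.61 in exons. With the length trend removed the intron median was 0.73. Nuclear receptor genes were higher at CT34 in 11 of 17, with Nr0b2 and Ppard past 2-fold (6.52% of all members). Nr3c1, the glucocorticoid receptor gene, was past it toward CT22 (1.62, exon 0.55), beside 6.45% of all members. Of the Nr3c1 intron reads 82.9% lay in 1 intron. The estrogen receptor gene Esr1 had an intron ratio of 0.35, with an interval that includes equal levels, and an exon ratio of -1.51.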

How the data were processed

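Liver polyA RNA was sequenced at 4 times, 1 library of 3 pooled animals each; CT22 and CT34 were compared. The authors deposited 2 values, a lower and an upper one, per transcript, exon and intron of each library, in no stated unit, and counts of reads across splice junctions. The submitters' processing notes name mm9, and junctions were found with RUM, per the file headers; the sources used here do not give versions or counting rules. The library protocol does not mark strand, per the labels.

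The deposited values behaved as RPKM: multiplied by length, 99.91 to 99.93% of transcript and 99.26 to 99.44% of intron lower values were whole numbers of 1 unit a library (tolerance 0.05 read after allowing for rounding). Lower values, read as uniquely mapped, were turned into reads; implied denominators were 27539177, 27546172, 24520720 and 26407596 reads (CT22, CT28, CT34, CT40), and members held 1639751, 1409039, 1161495 and 1323531 intron reads. Intron and exon sums were scaled separately by TMM (edgeR 4.0.16, R 4.3.3) to the mean of CT22 and CT34, and counts under 3 were set to 3. Ratios have exact conditional 95% intervals; the gap is the intron minus the exon log2 ratio, with a Poisson interval. The steps were tested on simulated data. Python 3.11.15, numpy 2.4.6, scipy 1.17.1, pandas 2.3.3 and matplotlib 3.10.9 were used.

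Members and the 35 gene lists were chosen with earlier results of these data known. Genes named were the core clock genes, the 12 each way whose ratio interval lay farthest from 1, the 8 each way whose gap interval lay farthest from 0, and the 3 genes of each list with the most intron reads; other list members are named after their values were seen. Of 129 genes so named, 96 had a RefSeq promoter window. Alternatives covered scaling, read limits, introns used, multi-mapped reads, the transcript, intron length and the exon readout. Values of some genes that the rule names are not reported here.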

Additional observations from a re-analysis of the deposited data

Results flagged for a closer look

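Intron reads were also found in genes of other tissues. Of 30 such genes, 9 had more than 10 exon reads over the 4 libraries, Ptprd and Erbb4 among them, and are not silent here. The other 21, with 9.26 Mb of usable introns, held 183, 55, 35 and 51 intron reads (CT22, CT28, CT34, CT40). Each count is above the limit of 3 reads that a count of 0 allows. The densities were 19.8, 5.94, 3.78 and 5.51 reads per Mb. Members held 7791 reads per Mb at CT22 and 5518 at CT34. These reads enter none of the gene ratios in the Results. In an added alternative their density was subtracted, and 386 genes were then 2-fold higher at CT22 in introns and 395 at CT34. CT22 held the most of these reads. Their source was not tested.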

How the results depend on the processing

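No paired analysis was possible because each time was 1 library. Counts are given for genes 2-fold higher at CT22 and at CT34 in introns (386 and 390), for intron ratios 2-fold above and below the exon ratio (405 and 383), and for genes past 2-fold in both readouts at CT22 and CT34 (72 and 68). With exon factors they were 1779, 70, 1761, 64, 154 and 25; all 386 and 70 of the 390 calls were shared. With at least 200 reads they were 172, 174, 198, 153, 39 and 33. With at least 20 reads, 630 and 637 genes were called, 592 lay below the exon ratio and 106 passed both at CT34. Without the intron with the most reads, 245 were higher at CT22, 268 above, 242 below, and 42 and 40 passed both. With all introns kept 151 passed both at CT34. At 1.5-fold the counts were 1089 and 1066, at 4-fold 47 and 29, and with the counting interval wholly past 2-fold 100 and 123. The cause was not tested beyond fewer or more genes and reads entering. Spliced junction reads in place of exon reads, an alternative added after seeing the data, gave 573 above and 450 below; leaving out the 289 genes with over 90% of reads in 1 of several introns, also added, gave 370 and 363. Directions turned for the growth hormone list (median 0.105 under exon factors, 1.38 from 200 reads), the other-tissue list (-0.59 with its own density subtracted), Mup11 (0.35) and Mup2 (0.11) with the upper value, and Prpf6 (-0.68 with all introns). Lists with a median nearer 0 were not counted there, and many changed sign between alternatives. Solute carriers ranged from -0.51 to 0.24, lipoprotein genes from -0.52 to 0.27 and the bile acid list from -0.21 to 0.48. Female-biased genes ranged from -0.32 to 0.47 and the urea and amino acid list from -0.38 to 0.43. The PPARα list stayed between -1.20 and -0.09. Of the 52 named genes past 2-fold, 51 kept their direction with all introns, 50 with the upper value, and all that could be computed under the other settings. Depth limits the 1724 members with 50 to 99 reads, whose intervals are wide, and 412 members rest on 1 intron. Introns of 1060 members overlap another gene, and this is not stated for every such gene named above.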

Other observations

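Genes of mitochondrial respiration and of RNA splicing are described only here. Of 18 respiration genes 11 were higher at CT22 in introns, 1 by at least 2-fold (6.45% of all members), Ndufb3 (1.40), a subunit of complex I, and the medians were 0.18 in introns (0.35 with the length trend removed) and 0.29 in exons. Of 17 SR and hnRNP splicing genes 9 were higher at CT22, 2 by 2-fold (6.45% of all members), Tra2b (1.39) and Son (1.35), with medians of 0.03 (0.19 with the length trend removed) and 0.19. Scaled intron reads of Tra2b were 59.2, 26.2, 22.5 and 29.0, highest at CT22. Genes of endoplasmic reticulum stress, chaperones and regulators such as Atf6 together, were higher at CT22 in 9 of 12 in introns and in 5 of 12 in exons, with medians of 0.15 (0.41 with the length trend removed) and -0.28. Pdia3, a disulfide isomerase, gave 1.02 in introns and -0.29 in exons, and Dnajb11, a co-chaperone, gave -1.47 and 0.01. Lists with few members gave values only. On the immediate early and C/EBP list 2 genes were kept, Zfp36 (0.12, with an interval that includes equal levels) and Cebpg (0.87). All 3 genes kept of the growth and cell cycle list and the 1 lymphocyte marker were higher at CT22; the 2 stellate cell markers were split, and of 5 other-tissue genes kept 3 were higher at CT22.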
